A study of Mus musculus with 3 samples.

Results

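The genes described here are the B7 ligands and the CD28-family receptors of T cell costimulation. They are 9 of the 32285 genes in the count matrices, chosen by name: the ligand genes Icosl, Cd80, Cd86, Cd274 and Pdcd1lg2, and the receptor genes Cd28, Ctla4, Icos and Pdcd1. The ligands were read in B cells, conventional dendritic cells and macrophages or monocytes, and the receptors in T cells, library by library. The cells were live CD45+ cells sorted from digested mouse aortas with the adventitia, and each library held the cells of 1 group. All groups were labelled ApoE-/- on the C57BL/6J background, a strain that clears lipoproteins poorly. The control group has no further treatment on its label. The group labelled HHcy drank homocysteine at 1.8 g/L for 4 weeks, and the third group, WD, received a western diet over 4 weeks. The labels give neither the age of the mice nor the number pooled in a library. By its title, the series asks how B cells and T cells interact in homocysteinemia.

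A T cell that has recognized its antigen needs a second signal from the presenting cell. CD80 and CD86 bind CD28, which adds to T cell activation, and also bind CTLA-4, which has the higher affinity and restrains it. ICOS ligand binds ICOS, a receptor of activated, helper and regulatory T cells, while PD-L1 (Cd274) and PD-L2 (Pdcd1lg2) bind PD-1 (Pdcd1) and dampen the T cell response. In atherosclerotic arteries these pairs act between T cells and the dendritic cells, macrophages and B cells of the wall and its adventitia.

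Each group has 1 library, so the groups could not be tested against each other and no p-value is given. Levels are counts of unique molecular identifiers (UMIs) summed over the cells of a class and library, scaled to 1e6 UMIs of that class (CPM). Values are given in the order control, labelled HHcy, western diet. Intervals are 95% and cover counting error only. A ratio is called past the fold when it reached 1.5-fold, its counting interval left out 1, and the 2 libraries together held at least 20 UMIs of the gene. Levels of different genes are not set against each other.

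The libraries held 66789257, 105180370 and 93164076 UMIs. After filters and the removal of barcodes with markers of several lineages (13.9%, 25.6% and 24.3% of those that passed), 5198, 6064 and 5081 cells were used. Cell classes were named from marker genes, and a subset named from its markers carries the ending "-like". The library labelled HHcy goes against its label: it held 39368 Apoe UMIs (374 CPM), against 1090 (16.3 CPM) and 1801 (19.3 CPM) in the control and western diet libraries. In it, 182 of 1212 macrophages or monocytes, 13 of 3622 B cells, 1 of 250 dendritic cells and 1 of 203 T cells held 10 or more Apoe UMIs. Every direction drawn from that library is read with this in view. Pairs of libraries shared 0.234% to 0.319% of their barcodes.

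Each gene had its own order of cell classes. Over the 9 classes with at least 10 cells in every library, Cd86 was highest in macrophages or monocytes (222 to 243 CPM over the libraries), then in dendritic cells (188 to 221 CPM) and B cells (135 to 175 CPM), and the ranges of these 3 neighbours did not overlap. All other classes except the control mast cells (82.6 CPM) stayed at or below 28.5 CPM. Icosl was highest in dendritic cells (55.6 to 86.6 CPM), overlapping with the few group 2 innate lymphoid cells (ILC2, 55.9 to 75.5 CPM). Neutrophils, macrophages and B cells followed with overlapping ranges between 20.1 and 49.4 CPM.

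Cd80 was highest in neutrophils (45.2 to 69.8 CPM), which overlapped with dendritic cells (35.4 to 50.7 CPM), and B cells (13.4 to 28.7 CPM) overlapped with macrophages (14.8 to 18.7 CPM). Cd274 was also highest in neutrophils (156 to 248 CPM), above B cells (83.4 to 141 CPM) with no overlap. Dendritic cells (83.4 to 171 CPM) overlapped with both, and macrophages lay between 76.3 and 103 CPM. No class stood out for Pdcd1lg2, since the ranges of B cells (13.3 to 19.0 CPM) and dendritic cells (7.56 to 25.8 CPM) overlapped and ILC2 ran from 0 to 36.2 CPM.

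The receptors were narrower. Cd28 in T cells lay between 353 and 371 CPM, with plasma cells next at 50.1 to 69.3 CPM and no overlap. Icos in T cells (210 to 300 CPM) overlapped with ILC2 (190 to 252 CPM), a lymphocyte type without antigen receptors, and no other class passed 18.7 CPM. Pdcd1 was low everywhere, at 22.8 to 61.1 CPM in T cells and 13.6 to 42.0 CPM in ILC2, and these ranges overlapped. Ctla4 was the exception, since its range in T cells (178 to 236 CPM) overlapped with plasma cells (120 to 295 CPM), and B cells came next at 32.5 to 77.1 CPM.

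**Figure D1:**
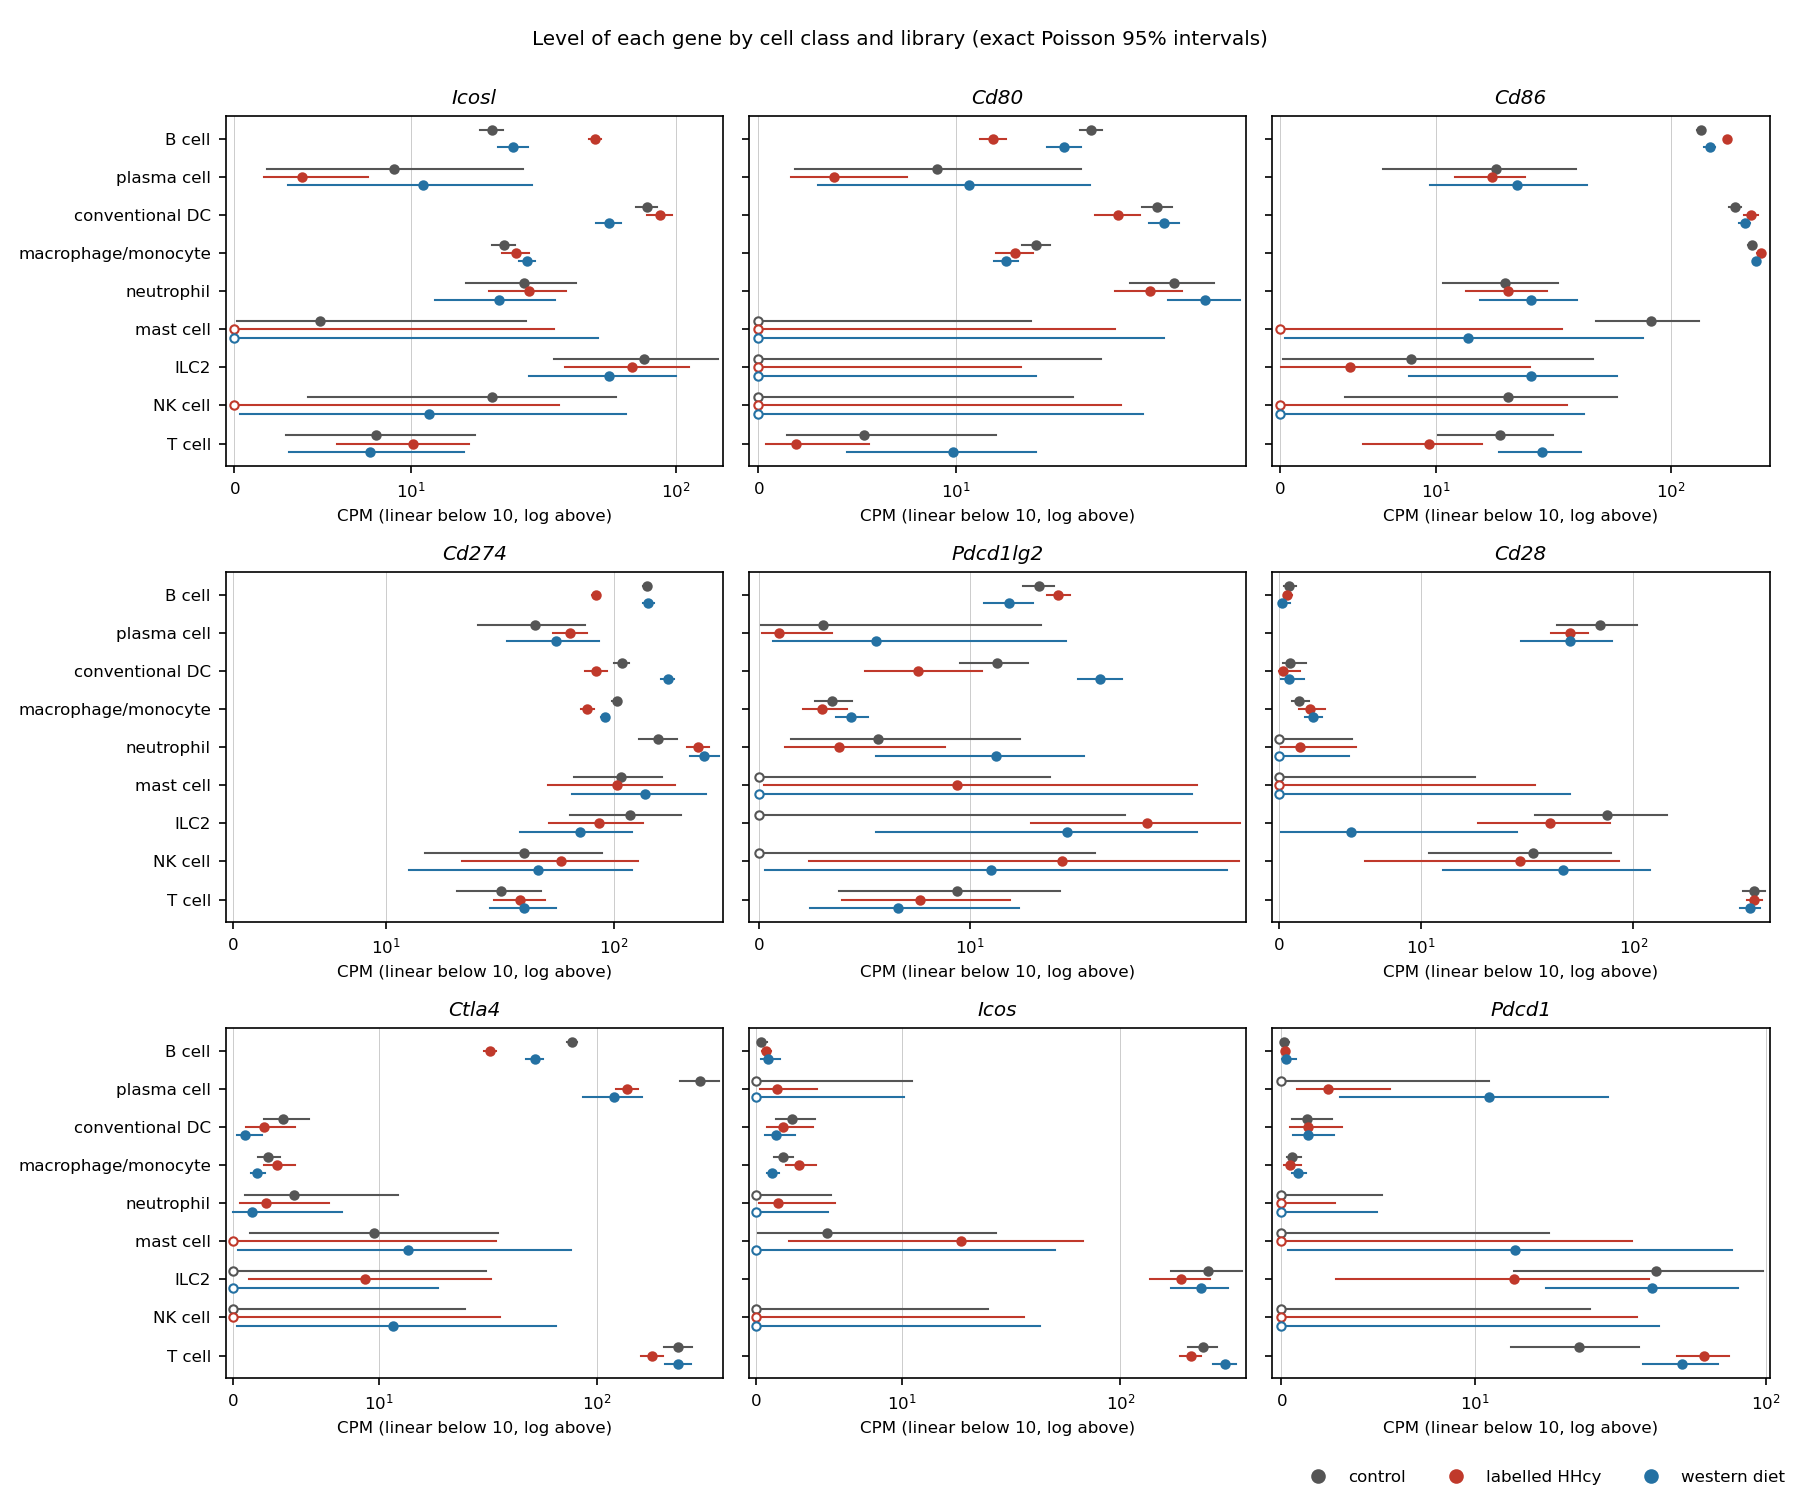
CPM of the 5 ligand and 4 receptor genes in 9 cell classes, with 1 point per library, its exact Poisson 95% interval as a line, and open points where no UMI was counted. Icosl in B cells of the library labelled HHcy (49.4 CPM) stands right of the other libraries (20.1 and 24.3 CPM), and Ctla4 is seen in B and plasma cells as well as in T cells.

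In B cells, 3 of the 5 ligands were past the fold between the library labelled HHcy and the control, against 11.1% of 12258 genes (4.04% higher and 7.06% lower). The counts were 1 of 5 higher and 2 of 5 lower, and against the western diet library they were the same (8.78% of 12004 genes, 2.48% higher and 6.30% lower). Between western diet and control it was 0 of 5 (4.80% of 11604 genes, 2.59% higher and 2.21% lower). The 3 comparisons share libraries, so they are not independent of each other.

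Icosl (ENSMUSG00000000732, chr10:78069302-78083913, plus strand), the ligand of ICOS, had 376, 1420 and 231 UMIs in B cells, or 20.1, 49.4 and 24.3 CPM. The library labelled HHcy was the high one. Its log2 ratio was 1.29 against the control (1.13 to 1.46) and 1.02 against western diet (0.82 to 1.23). The share of B cells with an Icosl UMI was 13.2%, 29.5% and 15.8% at median depths of 7425, 6396 and 6598 UMIs. In T cells, which are not known for Icosl, it was 3.62%, 6.40% and 4.05% at medians of 3728, 6023 and 4800 UMIs.

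Cd80 (ENSMUSG00000075122, chr16:38455561-38496335, plus strand), a ligand of both CD28 and CTLA-4, ran the other way at 28.7, 13.4 and 23.2 CPM in B cells. The library labelled HHcy was lowest, with log2 ratios of -1.10 against the control (-1.29 to -0.91) and -0.80 against western diet (-1.04 to -0.55). Cd274 (ENSMUSG00000016496, chr19:29367455-29388095, plus strand), the gene of PD-L1, stood at 139, 83.4 and 141 CPM. The library labelled HHcy was again lowest, with log2 ratios of -0.74 (-0.82 to -0.66) and -0.76 (-0.86 to -0.66). Cd86 (ENSMUSG00000022901, chr16:36603869-36666081, minus strand), the other CD28 and CTLA-4 ligand, was at 135, 175 and 147 CPM, and Pdcd1lg2 (ENSMUSG00000016498, chr19:29410919-29471161, plus strand) at 16.5, 19.0 and 13.3 CPM. Neither passed the fold in any of the 3 comparisons of B cells.

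The B cell subsets differed from each other in the same genes. Follicular B-like cells, the resting recirculating type, had 59.4, 69.4 and 64.7 CPM of Icosl, while B1-like cells, an innate-type B cell of the body cavities and adventitia, had 5.00, 10.5 and 4.18 CPM. The follicular level was 11.9, 6.64 and 15.5 times the B1 level within the libraries. Cd80 was the reverse, at 42.5, 40.7 and 38.8 CPM in B1-like cells and 2.77, 2.19 and 4.34 CPM in follicular B-like cells, a ratio of 15.3, 18.6 and 8.94. Cd274 was 2.42, 2.42 and 2.71 times higher in B1-like (170, 137 and 177 CPM) than in follicular B-like cells (70.5, 56.8 and 65.1 CPM). The members were kept out of the genes that formed the clusters, so these contrasts were not built in by them.

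Cd86 set the B1-like and follicular cells apart little, at 140, 163 and 148 CPM against 163, 188 and 193 CPM. Pdcd1lg2 was also alike in both, at 17.6, 20.9 and 14.3 CPM in B1-like and 21.0, 19.9 and 17.0 CPM in follicular B-like cells. An unnamed sub-cluster of 270, 189 and 225 cells, led by Sox4 and Vpreb3, had its own pattern. It carried Cd274 (160, 161 and 172 CPM), low Cd86 (35.4, 85.9 and 38.6 CPM) and nearly no Pdcd1lg2 (2, 2 and 1 UMIs).

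The subsets made up different shares of the B cells in the 3 libraries. B1-like cells were 50.9%, 18.8% and 39.0%, and follicular B-like cells 34.1%, 74.5% and 40.6%. With every library given the same mix of sub-clusters, the log2 ratios of the library labelled HHcy against the control were 0.34 for Icosl, -0.04 for Cd80 and -0.26 for Cd274, and none was past the fold. Against western diet they were 0.24, -0.02 and -0.31. Of the 1982 cells in the largest follicular B-like sub-cluster, 1612 came from the library labelled HHcy. Without this sub-cluster the ratio to the control was 1.15 for Icosl, -0.59 for Cd80 and -0.56 for Cd274, which is short of the fold.

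Within the B1-like cells, Icosl had 60, 86 and 22 UMIs, and the library labelled HHcy stood 1.06 above the control on the log2 scale (0.57 to 1.56). In the 3 main sub-clusters of follicular B-like cells, Icosl was 42.9, 63.2 and 59.7 CPM, 86.6, 92.8 and 74.4 CPM, and 49.8, 47.1 and 59.2 CPM. The library labelled HHcy was highest in only some of them.

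In dendritic cells, 1 of 5 ligands was past the fold between the library labelled HHcy and the control, and it was lower (8.75% of 10484 genes, 5.25% higher and 3.50% lower). Between western diet and control 2 of 5 were higher (10.5% of 10798 genes, 5.14% higher and 5.36% lower). Between the library labelled HHcy and western diet 1 of 5 was higher and 2 of 5 lower (11.9% of 10460 genes, 6.63% higher and 5.32% lower). The PD-1 ligands accounted for 5 of these 6 values. Cd274 was at 108, 83.4 and 171 CPM, highest in the western diet library, with a log2 ratio to the control of 0.67 (0.52 to 0.81). The library labelled HHcy stood at -1.04 against western diet (-1.23 to -0.85).

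Pdcd1lg2, the gene of PD-L2, had 74, 28 and 151 UMIs in dendritic cells, or 12.1, 7.56 and 25.8 CPM. Its log2 ratio was 1.09 (0.68 to 1.51) for western diet against control, -0.68 (-1.37 to -0.04) for the library labelled HHcy against control, and -1.77 (-2.41 to -1.19) for the library labelled HHcy against western diet. A single cell held 12 of the 74 control UMIs and 6 of the 28 in the library labelled HHcy. Icosl was at 77.5, 86.6 and 55.6 CPM, with the library labelled HHcy 0.64 above western diet (0.41 to 0.87). Cd80 (47.9, 35.4 and 50.7 CPM) and Cd86 (188, 221 and 207 CPM) passed the fold in no comparison. Summed markers of macrophages or monocytes in the dendritic cells were 1723, 2146 and 2685 CPM, with all 16 markers detected in every library, and their part in these ratios was not tested.

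The PD-1 ligands were concentrated in mature DC-like cells, the migratory type that carries Ccr7, Fscn1 and Ccl22. Cd274 was at 507, 550 and 492 CPM there, 55.9, 54.6 and 82.7 CPM in cDC2-like cells, which mainly serve helper T cells, and 16.1, 8.08 and 23.1 CPM in cDC1-like cells, which cross-present antigen. The 3 libraries kept this order, and the mature DC-like level was 9.07, 10.1 and 5.95 times the cDC2-like level. Pdcd1lg2 was at 63.9, 51.2 and 79.4 CPM in mature DC-like cells and at 5.55, 2.97 and 10.8 CPM in cDC2-like cells, with 0, 3 and 2 UMIs in cDC1-like cells. For the count of 0, a floor of 3 UMIs is 1.46 CPM and the exact interval ends at 1.80 CPM.

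Both genes lie next to each other on chromosome 19. Their RefSeq promoter windows (GRCm38.p6, the 250 bases before the annotated start, plus strand) are shown because both genes were highest in the dendritic cells of the western diet library and lowest in those of the library labelled HHcy, with the motifs described below them in capitals.
Cd274, chr19:29367188-29367437: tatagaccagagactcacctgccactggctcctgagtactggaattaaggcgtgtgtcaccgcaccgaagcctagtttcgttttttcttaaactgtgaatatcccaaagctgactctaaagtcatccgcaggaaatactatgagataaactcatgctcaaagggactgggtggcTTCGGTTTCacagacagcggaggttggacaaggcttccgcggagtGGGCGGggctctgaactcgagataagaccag
Pdcd1lg2, chr19:29410669-29410918: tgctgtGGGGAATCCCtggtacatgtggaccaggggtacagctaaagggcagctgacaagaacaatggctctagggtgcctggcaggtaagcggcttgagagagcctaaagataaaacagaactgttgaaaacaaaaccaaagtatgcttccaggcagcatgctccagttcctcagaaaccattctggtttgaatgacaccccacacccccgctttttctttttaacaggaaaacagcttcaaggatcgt
The windows were searched on both strands for cores of STAT sites (TTCNNNGAA) and IRF sites (GAAANNGAA), for the NF-kappaB consensus and for the GC box (GGGCGG). These occur in 7.01%, 7.12%, 5.00% and 32.7% of 32817 promoter windows of the same length. The Cd274 window holds 1 IRF core, 67 bases before the start, and 1 GC box, 25 bases before it. The Pdcd1lg2 window holds 1 NF-kappaB consensus, 234 bases before the start. These matches depend on how each motif is written: with a further A at the end of the IRF core, found in 2.97% of windows, or with T at each pyrimidine of the NF-kappaB consensus, neither window holds it. A promoter was found in the table for 6 of the 9 genes. The Icosl and Pdcd1 windows hold a GC box 53 and 71 bases before the start. The Ctla4 window holds an IRF core 157 bases before the start, again not in the longer form, and the Cd80 window holds no match. The Ctla4 (chr1:60908775-60909024) and Cd80 (chr16:38458683-38458932) windows lie inside the gene coordinates given here, since the RefSeq starts differ from those coordinates. The Icosl window (chr10:78069118-78069367) overlaps the start of its gene.

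Mature DC-like cells were 80 of 414, 34 of 250 and 108 of 353 dendritic cells, or 19.3%, 13.6% and 30.6%. Given an equal mix of sub-clusters, the log2 ratio of western diet to control was 0.12 for Cd274 and 0.47 for Pdcd1lg2, and that of the library labelled HHcy to western diet was -0.09 and -0.79. Only the last value stayed past the fold. In cDC2-like cells alone, the western diet library was the highest for both genes (82.7 CPM of Cd274 and 31 UMIs of Pdcd1lg2, against 14 and 5). With the mature DC-like cells left out of the class, the western diet library was above the control by 0.81 (0.54 to 1.09) for Cd274 and by 1.48 (0.54 to 2.50) for Pdcd1lg2. The cells left still differed in mix, since cDC1-like cells were 32.4%, 34.4% and 19.0% of the whole class. Within cDC2-like cells Cd274 was at 0.56 (0.26 to 0.87), short of the fold, and Pdcd1lg2 at 0.955 (0.002 to 1.98). Within cDC1-like cells Cd274 was at 0.52 (-0.27 to 1.30).

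Icosl was different in this class. In mature DC-like cells it stood at 163, 189 and 69.3 CPM, so the western diet library was low and its interval (56.6 to 84.1 CPM) did not meet those of the others. The log2 ratio of western diet to control was -1.23 (-1.61 to -0.86). In cDC1-like cells it was 69.7, 65.4 and 36.8 CPM (log2 ratio -0.92), and in cDC2-like cells 54.7, 84.3 and 52.1 CPM, where western diet and control were alike within counting error. Cd80 was at 96.9, 86.2 and 82.1 CPM in mature DC-like cells and, of the named subsets, lowest in cDC1-like cells (16.1, 12.5 and 23.1 CPM). An unnamed sub-cluster of 22, 11 and 11 cells was lower still, at 8.45, 6.92 and 9.69 CPM. Of the named subsets, Cd86 was lowest in cDC1-like cells (143 to 194 CPM over the libraries), below the overlapping ranges of cDC2-like (213 to 243 CPM) and mature DC-like cells (211 to 305 CPM). The unnamed sub-cluster (149 to 176 CPM) overlapped with the cDC1-like cells.

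**Figure D2:**
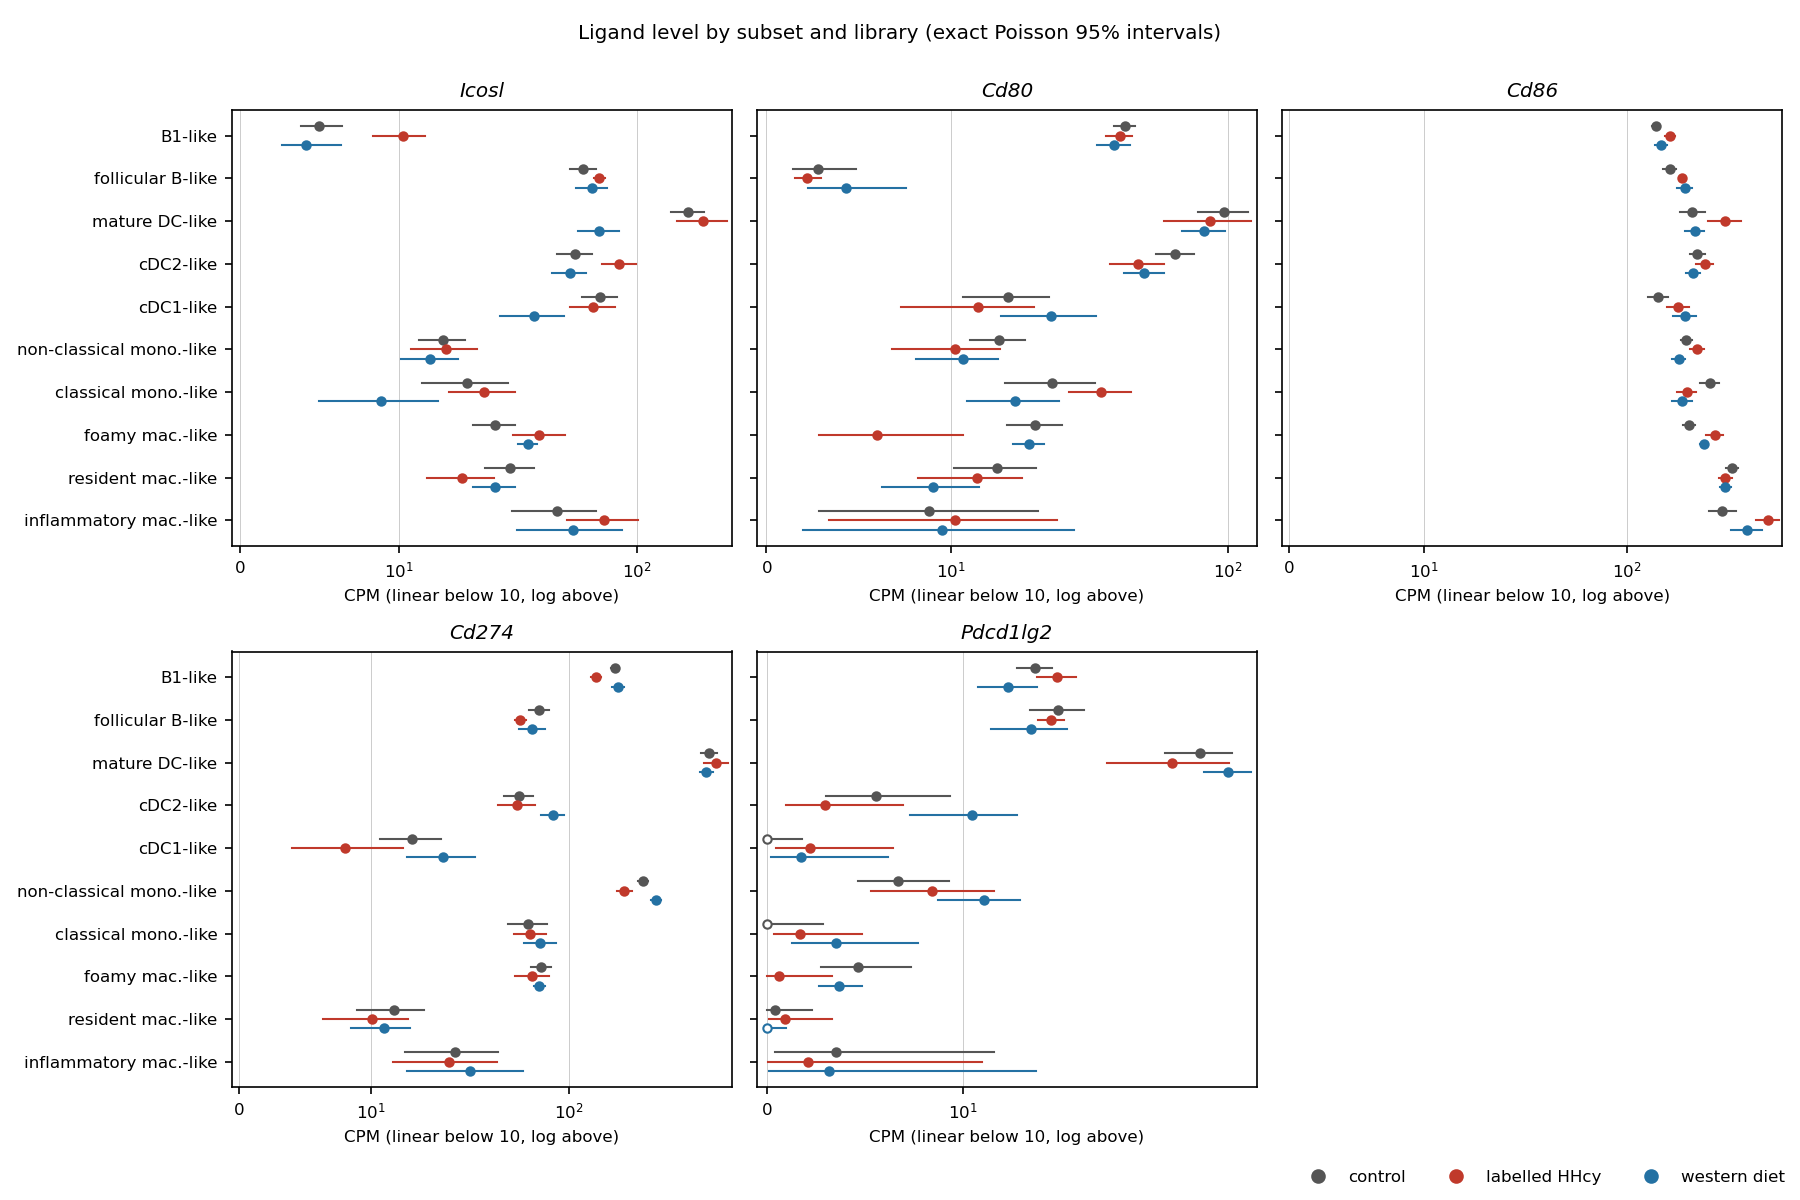
CPM of the 5 ligands in named subsets of B cells, dendritic cells and macrophages or monocytes, with 1 point per library, its exact Poisson 95% interval as a line, and open points where no UMI was counted. Icosl and Cd80 separate B1-like from follicular B-like cells in opposite directions, and Cd274 and Pdcd1lg2 are highest in mature DC-like cells in every library.

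In macrophages and monocytes, 0 of 5 ligands were past the fold in any comparison. Of all genes, 5.93% of 12439 were past it between the library labelled HHcy and the control (3.09% higher and 2.85% lower). Between western diet and control it was 7.19% of 13093 (3.43% higher and 3.76% lower), and between the library labelled HHcy and western diet 8.12% of 12936 (4.07% higher and 4.05% lower). Cd86 was at 222, 243 and 230 CPM and Icosl at 22.3, 24.8 and 27.4 CPM. Cd274 was at 103, 76.3 and 90.9 CPM, lowest in the library labelled HHcy (log2 ratio to control -0.43, -0.54 to -0.31). Cd80 was at 18.7, 15.8 and 14.8 CPM. Pdcd1lg2 was at 3.44, 2.98 and 4.37 CPM, found in 2.62%, 2.64% and 3.84% of cells at medians of 7554, 8388 and 9301 UMIs.

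The subsets of this class were far more unlike than the libraries. Cd274 was at 236, 190 and 275 CPM in non-classical monocyte-like cells, which patrol vessels, and at 13.1, 10.1 and 11.7 CPM in resident macrophage-like cells with Lyve1 and Folr2, a ratio of 18.0, 18.7 and 23.5. Cd86 was highest in an inflammatory macrophage-like sub-cluster led by Mmp13 (297, 496 and 393 CPM) and in resident macrophage-like cells (330, 308 and 308 CPM). These 2 subsets overlapped.

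Foamy macrophage-like cells, the lipid-laden type, were 16.0%, 12.4% and 37.8% of the class and came as 2 sub-clusters with opposite ligands. One led by Spp1 and Gpnmb had 162, 125 and 172 CPM of Cd274 and 8.21, 15.4 and 11.5 CPM of Icosl. The other, led by Spp1, Cd72 and Trem2, had 10.1, 42.8 and 20.8 CPM of Cd274 and 37.2, 47.8 and 46.3 CPM of Icosl. The difference was seen in all 3 libraries for both genes. Cd80 followed Cd274, at 34.7, 11.0 and 40.2 CPM in the Gpnmb-led and 10.1, 4.12 and 8.67 CPM in the Trem2-led cells. In the library labelled HHcy, with 31 Gpnmb-led cells, the Cd80 ratio was 2.665 and its interval (0.613 to 11.6) held 1. The Gpnmb-led cells held more UMIs per cell (medians of 13740, 13990 and 15230 against 8998, 8163 and 9330). Over both, Cd80 had 78, 10 and 241 UMIs, and in the library labelled HHcy the log2 ratio to the control was -1.75 (-2.87 to -0.79).

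Cells with UMIs of several ligands were counted next. At least 3 of the 5 ligands were detected in 62.5%, 64.7% and 63.0% of mature DC-like cells, in 38.2%, 34.5% and 43.1% of cDC2-like cells, and in 12.7%, 17.4% and 19.4% of cDC1-like cells. The mature DC-like cells were the shallower ones, with medians of 10760, 11130 and 12460 UMIs against 15240, 15470 and 17060 in cDC1-like cells. In B1-like cells the share was 21.5%, 29.1% and 24.0% (medians of 10460, 11200 and 10640 UMIs) and in follicular B-like cells 6.64%, 10.6% and 8.66% (5371, 6043 and 5142 UMIs). Resident macrophage-like cells had 1.55%, 1.45% and 2.43% (4876, 6095 and 6430 UMIs). Among mature DC-like cells with a Cd274 UMI, 39.1%, 31.0% and 52.1% also held Pdcd1lg2. In those without Cd274, 0 of 11, 1 of 5 and 3 of 12 held it, and these cells were shallower (8834, 3922 and 4764 UMIs against 11530, 12510 and 12910).

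**Figure D3:**
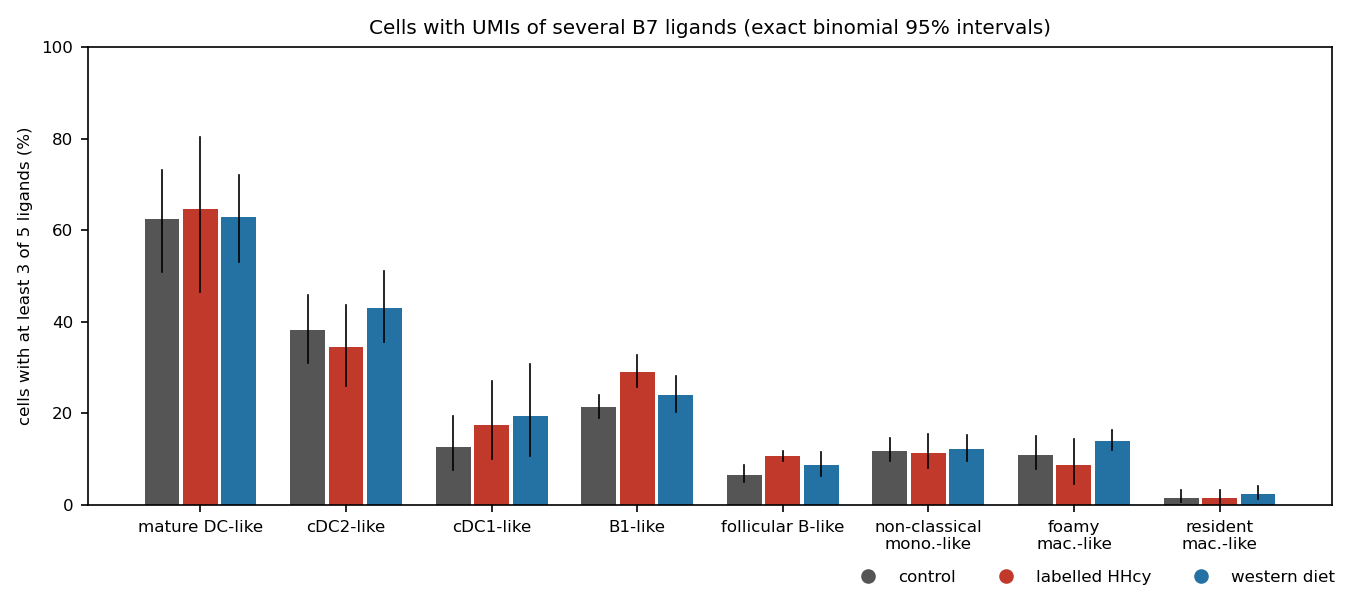
Share of cells with UMIs of at least 3 of the 5 ligands, in percent, by subset and library, with exact binomial 95% intervals as lines on the bars. Mature DC-like cells stand at 62.5% to 64.7% in the 3 libraries, and resident macrophage-like cells at 1.45% to 2.43%.

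The T cells were few, at 138, 203 and 148 cells. Of the 4 receptors, 1 was past the fold between the library labelled HHcy and the control (8.50% of 8315 genes, 2.89% higher and 5.62% lower). The same receptor, Pdcd1, was past it between western diet and control (7.62% of 7571 genes, 4.41% higher and 3.21% lower). Between the library labelled HHcy and western diet it was 0 of 4 (8.16% of 8447 genes, 2.24% higher and 5.92% lower). All 4 genes lie on chromosome 1, with Cd28 (ENSMUSG00000026012, chr1:60716800-60773359), Ctla4 (ENSMUSG00000026011, chr1:60887000-60915832) and Icos (ENSMUSG00000026009, chr1:60977927-61000320) next to each other on the plus strand and Pdcd1 (ENSMUSG00000026285, chr1:94038305-94052553) on the minus strand.

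Cd28, the activating receptor for CD80 and CD86, was nearly level at 369, 371 and 353 CPM. Icos was at 238, 210 and 300 CPM, highest in the western diet library. Ctla4, the inhibitory receptor for CD80 and CD86, was at 236, 178 and 235 CPM, lowest in the library labelled HHcy, and 1 cell held 44 of the 215 UMIs in the western diet library.

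Pdcd1, the gene of PD-1, had 17, 96 and 47 UMIs, or 22.8, 61.1 and 51.4 CPM. The control was low, and the library labelled HHcy had a log2 ratio to it of 1.43 (0.67 to 2.26) and western diet one of 1.18 (0.35 to 2.07). Both ratios rest on the same 17 control UMIs. The T cells of the control were also the shallowest, with a median of 3728 UMIs against 6023 and 4800. With each cell thinned to 1000 UMIs the ratios were 1.51 (-0.36 to 3.96) and 1.42 (-0.58 to 3.94), no smaller than before, but on 16 and 12 UMIs their intervals held 0. Pdcd1 was found in 7.97%, 18.7% and 14.9% of T cells and in 0.0925%, 0.110% and 0.168% of B cells at their medians of 7425, 6396 and 6598 UMIs. Summed markers of NK cells in the T cells were 2199, 1471 and 3112 CPM, those of macrophages 1075, 884 and 1525 CPM, and those of plasma cells 906, 147 and 183 CPM. A single control cell held 547 of the 677 plasma-marker UMIs. The part of these in the ratios was not tested.

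A small subset, the IL-17/gamma-delta T-like cells led by Il17a, held 0 Pdcd1 UMIs in 16 control cells, 23 in 22 cells of the library labelled HHcy and 27 in 22 western diet cells. The last 2 were 175 and 210 CPM, or 5.69 and 6.84 times the 30.8 CPM that 3 UMIs would give in the control cells, and the counting intervals of the ratios began at 4.26-fold and 5.19-fold. With these cells left out of the class, the library labelled HHcy had a log2 ratio to the control of 0.96 (0.18 to 1.81) and western diet one of -0.04 (-1.05 to 0.98). CD8 T-like cells held 6, 20 and 7 Pdcd1 UMIs (33.7, 76.9 and 26.9 CPM) and regulatory T-like cells 7, 23 and 6 (92.5, 177 and 62.1 CPM), so the library labelled HHcy was highest in both. Its log2 ratios to the control were 1.19 (-0.18 to 2.8) and 0.94 (-0.33 to 2.4), and both intervals held 0.

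The other receptors also differed by T cell subset. Ctla4 was highest in regulatory T-like cells (Foxp3 among the leading genes), at 1533, 1024 and 849 CPM, against 95.5, 65.4 and 96.2 CPM in CD8 T-like cells, a ratio of 16.1, 15.7 and 8.83. Icos was high in IL-17/gamma-delta T-like cells (913, 692 and 748 CPM) and in regulatory T-like cells (568, 854 and 818 CPM), and low in naive T-like cells (35.9, 113 and 177 CPM) and CD8 T-like cells (118, 76.9 and 181 CPM). Without the IL-17/gamma-delta T-like cells, Icos in T cells was past the fold for western diet against control, at 0.73 (0.35 to 1.11).

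Cd28 was broad across subsets. It was at 489, 793 and 797 CPM in regulatory T-like cells, 562, 423 and 335 CPM in CD8 T-like cells and 351, 309 and 428 CPM in naive T-like cells. Of the 4 named subsets it was lowest in IL-17/gamma-delta T-like cells, at 328, 106 and 156 CPM. The unnamed sub-cluster, with Mki67 among its leading genes, was at 226, 364 and 294 CPM, so in the control it was lower still. At least 3 of the 4 receptors were detected in 9 of 17, 17 of 20 and 8 of 21 regulatory T-like cells, and in 4 of 55, 7 of 56 and 4 of 60 CD8 T-like cells (medians of 3450, 6088 and 4238 against 3046, 4069 and 3859 UMIs).

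**Figure D4:**
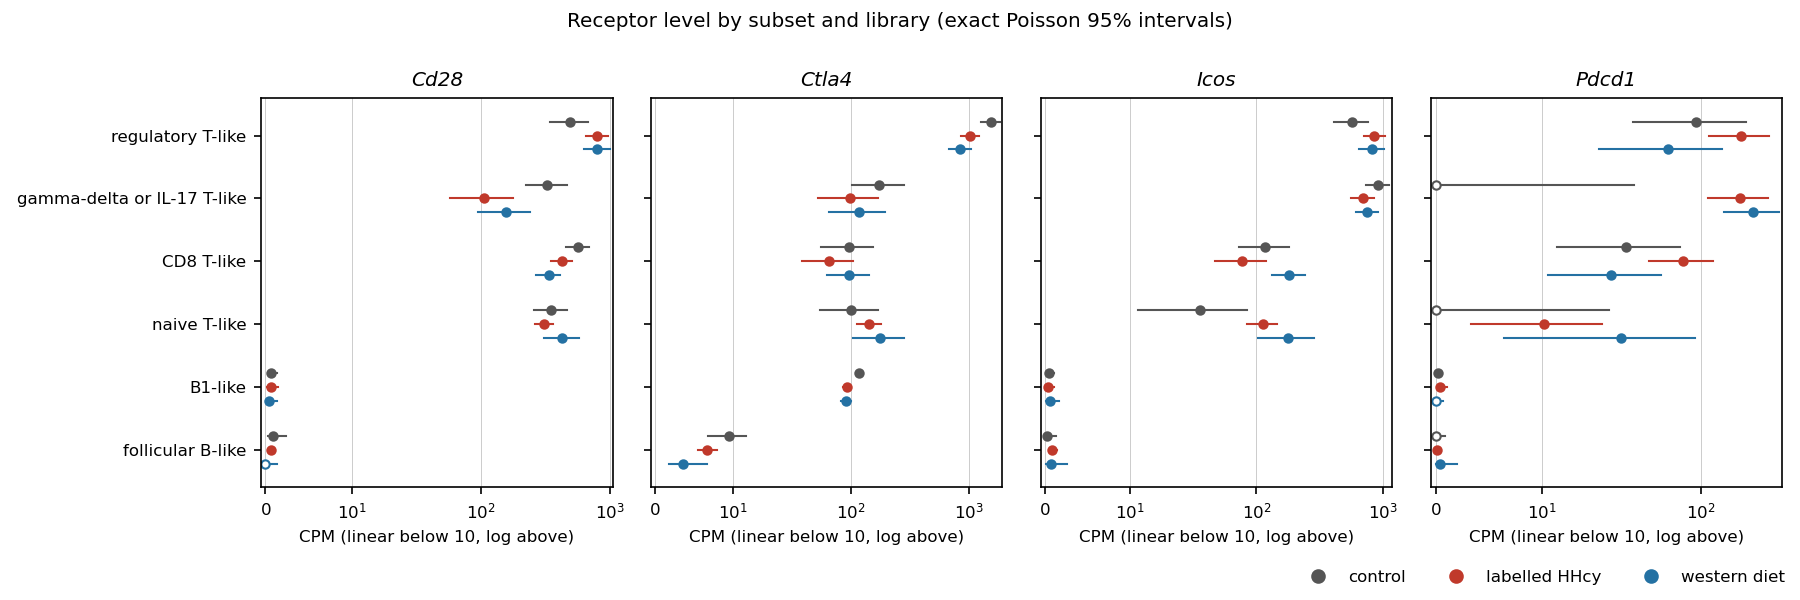
CPM of the 4 receptors in T cell subsets and, for comparison, in B1-like and follicular B-like cells, with 1 point per library, its exact Poisson 95% interval as a line, and open points where no UMI was counted. Regulatory T-like cells lead for Ctla4, Pdcd1 is at 0 UMIs in the IL-17/gamma-delta T-like cells of the control, and B1-like cells carry Ctla4 but nearly no Cd28, Icos or Pdcd1.

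Most Ctla4 UMIs of these aortic cells lay outside the T cells. B cells held 1439 of 1782, 935 of 1558 and 494 of 810 UMIs in named classes, or 80.8%, 60.0% and 61.0%, and T cells 9.88%, 18.0% and 26.5%. Of the cells in these classes, B cells were 43.7%, 63.1% and 25.7% and T cells 2.79%, 3.54% and 3.18%. The B cell share of Ctla4 UMIs was thus above its share of cells in the control and western diet libraries only. Within B cells the source was the B1-like subset, at 116, 92.0 and 90.7 CPM, against 9.47, 6.61 and 3.62 CPM in follicular B-like cells. The ratio was 12.2, 13.9 and 25.1. A Ctla4 UMI was found in 38.9%, 37.9% and 38.4% of B1-like cells (medians of 10460, 11200 and 10640 UMIs) and in 2.17%, 2.31% and 1.79% of macrophages or monocytes (7554, 8388 and 9301 UMIs).

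One B1-like sub-cluster had 171, 127 and 132 CPM of Ctla4 and another 46.2, 60.1 and 52.4 CPM. Cd28, Icos and Pdcd1 stayed at or below 0.841 CPM in B cells of every library, and summed T cell markers there were 24.4 to 33.8 CPM, with Cd3e at 0.210 to 0.626 CPM. Over all B cells Ctla4 was 77.1, 32.5 and 52.0 CPM, beside B1-like shares of 50.9%, 18.8% and 39.0%.

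Cd80, a ligand of CTLA-4, was found in more of the Ctla4-positive than Ctla4-negative B1-like cells, at 31.8% against 22.8%, 35.3% against 25.6% and 35.2% against 25.1%. The positive cells were also deeper, with medians of 11690 against 9566, 12540 against 10420 and 11160 against 10420 UMIs, and the part of depth in this was not tested. Both genes were found more often in one B1-like sub-cluster (Ctla4 in 54.6% to 56.9% of its cells, Cd80 in 33.2% to 38.5%) than in the other main one (19.8% to 24.4% and 18.2% to 23.0%). Within the former, Cd80 was in 33.2% of Ctla4-positive against 33.1% of negative cells in the control, 38.2% against 38.9% in the library labelled HHcy and 38.8% against 31.0% under western diet, with overlapping intervals. Within the latter it was 27.0% against 16.0%, 29.1% against 17.6% and 30.2% against 20.7%, again with overlapping intervals. Cd86 did not follow over all B1-like cells (67.8% against 73.5%, 75.2% against 71.6% and 67.0% against 69.3%).

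**Figure D5:**
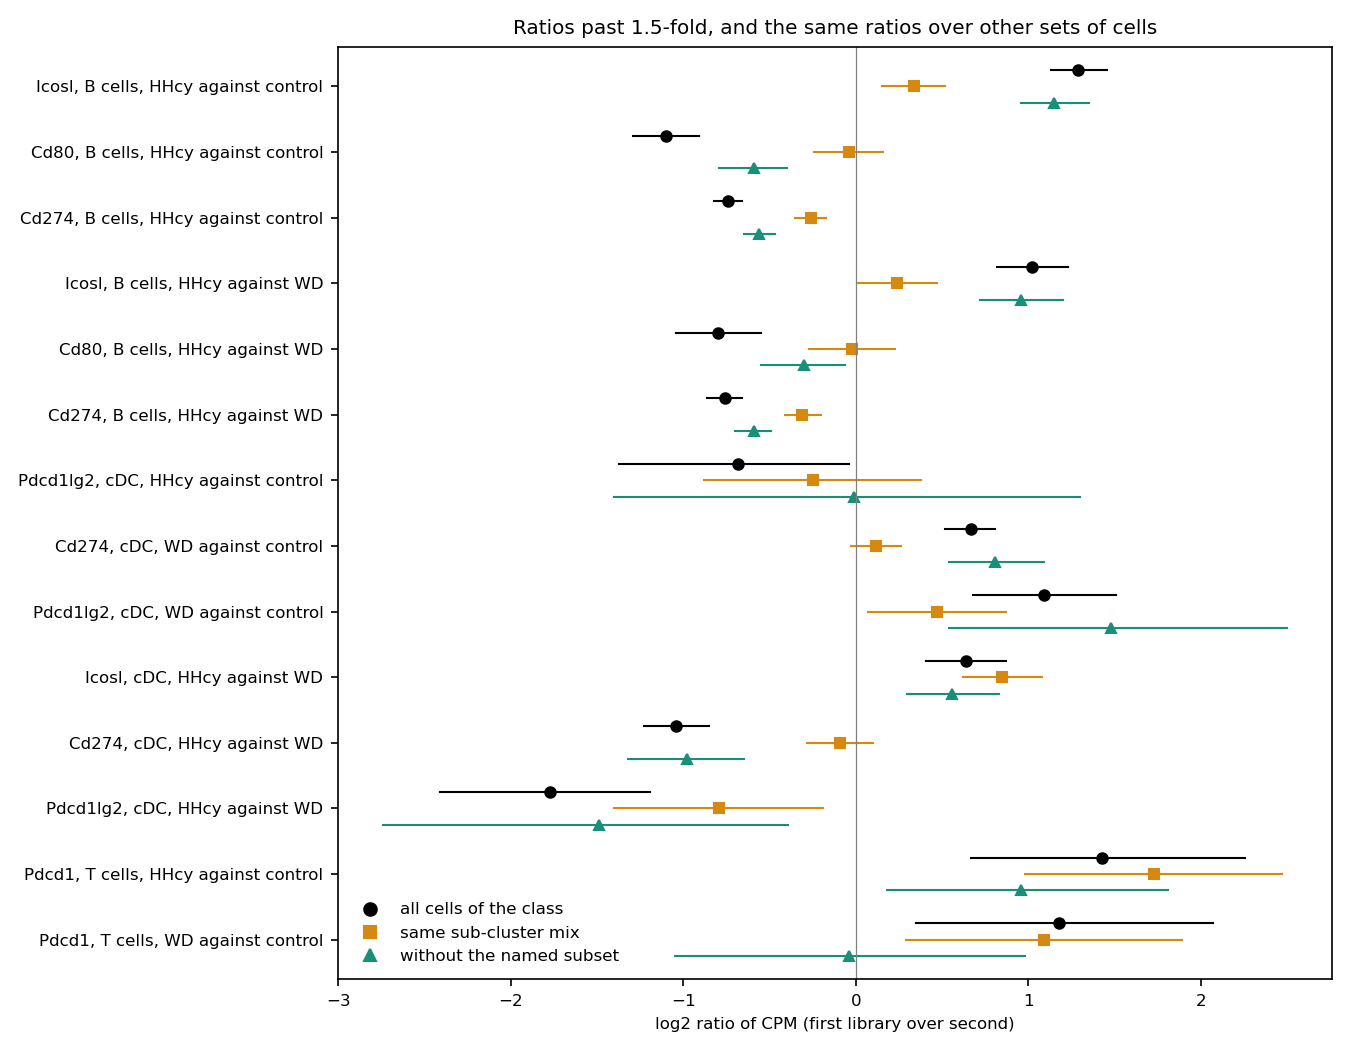
Log2 ratios of CPM for the 14 values past the fold, over all cells of the class (circles), with the same sub-cluster mix in both libraries (squares), and without 1 subset (triangles: the follicular B-like sub-cluster mostly of 1 library, the mature DC-like cells, or the IL-17/gamma-delta T-like cells), with 95% counting intervals as lines. All 6 B cell values move towards 0 with the same mix, Pdcd1lg2 between the library labelled HHcy and western diet stays at -0.79, and Pdcd1 between western diet and control falls to -0.04 without the IL-17/gamma-delta T-like cells.

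Genes around the pathway were read from fixed lists. Of 23 regulators of the B7 ligands, 2 were higher and 3 lower in B cells of the library labelled HHcy than in the control (median log2 ratio 0.03, against -0.03 over all genes). That is 21.7% of the list, beside 11.1% of all genes. Those with the largest ratios were Batf3 (-1.44), a dendritic cell transcription factor, Irf1 (-0.73), an interferon-response factor that acts on Cd274, Jak2 (-0.67), an interferon-receptor kinase, and Ciita (0.66), the master switch of MHC class II. Irf1 was at 62.9, 37.8 and 65.0 CPM in B cells and at 66.4, 42.9 and 65.7 CPM in dendritic cells, so the library labelled HHcy was low in both classes. In dendritic cells the list gave 0 higher and 1 lower for the library labelled HHcy against control, 0 and 0 for western diet against control (8.75% and 10.5% of all genes), and 1 and 2 for the library labelled HHcy against western diet (11.9% of all genes). In the last comparison Relb, an NF-kappaB subunit of mature dendritic cells, was at -0.86 (412 against 1182 UMIs). None of the 23 passed the fold in macrophages or monocytes in any comparison, or in B cells between western diet and control. All these values are over whole classes, whose subset mix differed between the libraries. The regulators were not read with the same sub-cluster mix, so the part of the mix in their ratios was not tested.

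In T cells, 29 genes of CD28-family signalling gave 1 higher and 0 lower for the library labelled HHcy against control, 2 and 0 for western diet against control, and 1 and 1 for the library labelled HHcy against western diet. These are 3.45%, 6.90% and 6.90% of the list, below the 8.50%, 7.62% and 8.16% of all genes, so the list as a whole did not stand out. Of the few past the fold, Bcl10, an adaptor on the path to NF-kappaB, was at 70.9, 108 and 124 CPM, and Cblb, a ubiquitin ligase that restrains CD28 signalling, was 0.74 higher under western diet than in the control on the log2 scale. Bcl6, the factor of follicular helper T cells, was 1.08 higher in the library labelled HHcy than under western diet on 40 and 11 UMIs, and Maf was at -0.59. The medians of the list were -0.01, 0.01 and -0.04 in these comparisons, against -0.04, 0.05 and -0.09 over all genes.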

How the data were processed

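The deposited matrices hold raw UMI counts per gene and barcode from 3 libraries of the 3' version 3 chemistry. Per the file headers they were written by Cell Ranger 4.0.0, while the submitters' processing notes name Cell Ranger 2.2.0 and mm10. The files held 0 columns from outside the series. The identifiers of all 9 genes matched GENCODE M21 (GRCm38), which gave the coordinates. The genes and gene lists were chosen with earlier results of these data known.

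Barcodes with fewer than 200 genes or over 10% mitochondrial UMIs were left out, as were barcodes with markers of several of 5 lineages. The limits of that rule were set after the data were seen, and it cannot mark doublets within a lineage. Cells were clustered jointly (2000 variable genes without the 9 members, 30 principal components, 20 neighbours, Leiden resolution 1.0, then 0.5 within classes; leidenalg 0.10.2, scikit-learn 1.9.0). Clusters were named from fixed markers, so the names are rebuilt ones, and 216, 221 and 245 cells stayed unnamed. A B cell and a dendritic cell sub-cluster with macrophage genes among their leading genes lost their class. Doublet removal and depth differed between libraries, and their part in the ratios was not tested beyond the alternatives below.

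Log2 ratios carry exact conditional binomial intervals, levels exact Poisson and shares Clopper-Pearson intervals (95%), computed with scipy 1.17.1. They leave out the spread between mice and preparations. On simulated counts, 93.8% of genes changed by 1 on the log2 scale were recovered in the 12261 genes of the B cell comparison of the library labelled HHcy with the control, and 77.9% in the 8275 genes of the T cell comparison. These shares rest on 96 and 95 changed genes. Of the unchanged genes 0.829% and 2.545% were called. The simulated counts were Poisson draws from 1 pooled profile, the same counting error that the intervals assume. The simulation therefore cannot show how often spread between mice, preparations or subset mixes leads to a call. The genes named are all 9 members, and of each pathway list up to 4 genes with the largest ratio past the fold. For each member the 2 genes most alike over classes and libraries are named too. Motif forms were revised after matches were seen. Alternatives were other limits, scalings and cell sets.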

Additional observations from a re-analysis of the deposited data

Results flagged for a closer look

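Several ligands ran in opposite directions in different cell classes of the same comparison, each with a counting interval that left out 0. Each difference between classes was not tested, since there was 1 library per group, and several of the values were short of the 1.5-fold limit.

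Pdcd1lg2 was higher in B cells (0.21 on the log2 scale) and lower in dendritic cells (-0.68) of the library labelled HHcy than in the control. Under western diet it was lower in B cells (-0.32) and higher in dendritic cells (1.09) than in the control. Between the library labelled HHcy and western diet it was 0.52 in B cells, -1.77 in dendritic cells and -0.55 in macrophages or monocytes.

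Icosl under western diet was higher than in the control in B cells (0.27) and in macrophages or monocytes (0.30) and lower in dendritic cells (-0.48). Cd274 under western diet was higher than in the control in dendritic cells (0.67) and lower in macrophages or monocytes (-0.17).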

How the results depend on the processing

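Among 57 member values, 14 were past the fold, and 8 alternatives were tried for each. Of all genes, 4.80% to 11.9% were past it, depending on the class and comparison. The 57 values reuse the same libraries, so they are not independent of each other. Only Pdcd1lg2 in dendritic cells, the library labelled HHcy against western diet, stayed past the fold in all that gave a value (7). Icosl in dendritic cells, for the same comparison, stayed past it in 4 of 8, with a lowest value of 0.52. It was not past the fold with a mitochondrial limit of 20%, with doublets kept, in thinned cells or with trimmed-mean (TMM) scaling. Of 344 alternative values of the other 43 members' values, 23 passed the fold. Of the 14, 8 also passed 2-fold. With the same sub-cluster mix 4 of the 14 stayed past the fold and 4 others passed it, 8 in all. In thinned cells 6 of the 12 that gave a value stayed and 5 others passed, and with cells named by their own markers all 14 stayed and 5 others passed. The cause was not tested unless the alternative's own construction gives it.

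With the same sub-cluster mix, B cell values of the library labelled HHcy against control were 0.34 (Icosl), -0.04 (Cd80) and -0.26 (Cd274), and against western diet 0.24, -0.02 and -0.31. In dendritic cells they were 0.12 (Cd274) and 0.47 (Pdcd1lg2) for western diet against control and -0.09 and -0.79 for the library labelled HHcy against western diet.

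In cells thinned to 1000 UMIs, B cell values against control were 0.98 (Icosl), -1.74 (Cd80) and -0.94 (Cd274), and Cd274 against western diet was -0.93. In dendritic cells thinning gave 0.25 (Cd274) and 2.23 (Pdcd1lg2) for western diet against control and -0.61 (Cd274) for the library labelled HHcy against western diet. With doublets kept, Cd274 in dendritic cells was 0.52 and -0.84 in these comparisons, and Pdcd1 in T cells was 2.27 for western diet against control. With cells named by their own markers, dendritic cells gave 0.87 (Cd274) and 1.63 (Pdcd1lg2), then -1.44 and -2.71. Over the 8 alternatives, Pdcd1 in T cells for western diet against control ran from 0.61 to 2.27. That value was not past the fold with a mitochondrial limit of 20% or in thinned cells.

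Of the alternatives chosen after the data were seen, leaving out the follicular B-like sub-cluster mostly of 1 library gave -0.59 (Cd80) and -0.56 (Cd274) against control and -0.30 and -0.59 against western diet. Leaving out mature DC-like cells gave -0.01 for Pdcd1lg2, the library labelled HHcy against control, and 0.81 for Cd274, western diet against control. The cells left still differed in their share of cDC1-like cells. Leaving out IL-17/gamma-delta T-like cells gave -0.04 for Pdcd1, western diet against control. All 14 stayed past the fold without the cells with 10 or more Apoe UMIs. They lie in classes that lost few cells (13 of 3622 B cells, 1 of 250 dendritic cells and 1 of 203 T cells). This outcome was nearly fixed in advance and settles nothing about the Apoe UMIs of the library labelled HHcy. No paired analysis was possible because each group has 1 library. T cell values rest on 138 to 203 cells, and Pdcd1 on 17 control UMIs.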

Other observations

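Other cells of the aorta carried members of both families. Neutrophils had 156, 234 and 248 CPM of Cd274 (111, 310 and 185 UMIs) in the control, the library labelled HHcy and western diet, so the control was lowest and its interval (128 to 188 CPM) did not meet the other 2. The neutrophils came as 2 clusters in unlike proportions. One held 81, 228 and 164 cells, and the other, with Camp and Ngp among its leading genes, 68, 42 and 28 cells. The part of this mix in the Cd274 levels was not tested. Mast cells had 107, 103 and 137 CPM of Cd274 (22, 11 and 10 UMIs). ILC2 held 30, 42 and 46 Icos UMIs, summed over 23, 34 and 35 cells. Plasma cells held 98, 287 and 43 UMIs of Ctla4, summed over 17, 76 and 20 cells, and 23, 105 and 18 UMIs of Cd28. One control plasma cell held 46 of the 98 Ctla4 UMIs and one western diet plasma cell 12 of the 18 Cd28 UMIs, so these levels rest on few cells.

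The genes most alike in level were read over 18 points, from 6 classes in 3 libraries, which share their libraries and depth. As a description, Cd86 followed Cd40 and Cd180 (r = 0.96 for each), B cell and myeloid surface receptors. Cd80 followed Themis2 (0.96) and Rassf3 (0.92). Cd274 followed Bcl3 (0.88) and Hist1h2bc (0.84), Icosl followed Atp8a1 (0.79) and 4933421O10Rik (0.78), and Pdcd1lg2 followed Nedd4l (0.81) and Arid3b (0.77). Icos and Pdcd1 both followed Bcl11b (0.99 and 0.98), a T and ILC2 lineage factor, and next F2r (0.99) and Icos itself (0.98). Cd28 followed Nkg7 and Actn2 (0.97 for each), and Ctla4 followed Gimap7 (0.96) and Dtx1 (0.93).

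Of 6 other B7 and CD28 relatives, Btla, an inhibitory receptor, was 0.82 higher on the log2 scale in dendritic cells of the library labelled HHcy than under western diet, and 0.95 higher in macrophages or monocytes (1 of 2 and 2 of 4 tested relatives past the fold, beside 11.9% and 8.12% of all genes). In the latter Btla was at 8.60, 10.5 and 5.43 CPM and Cd276, a B7 homologue, at 5.66, 3.06 and 6.40 CPM (36 UMIs in the library labelled HHcy). None of the relatives tested passed the fold in B cells (3 tested) or T cells (3 tested). Of all genes, 4.80% to 11.1% passed it in B cells and 7.62% to 8.50% in T cells. With so few relatives tested, their absence says little beside these shares.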
